A study of Mus musculus with 16 samples.

Results

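Loss of p300 was compared with wild type in mouse hematopoietic stem and progenitor cells (HSPCs) by ATAC-seq, which reads out DNA that is open to a transposase. The comparison used 8 of the 16 libraries of the series, chosen by their titles: P300KO replicates 1 to 4 and WT replicates 1 to 4. WT mice carried floxed Ep300 alleles without Cre (Ep300 fl/fl), and P300KO mice carried the same alleles with the Mx1-Cre transgene (Mx1-Cre;Ep300 fl/fl). All were C57BL/6 mice injected with poly(I:C), a double-stranded RNA mimic that induces interferon and, through it, the interferon-responsive Mx1 promoter that drives Cre. Cre is therefore not confined to HSPCs, and the control mice had the injection but not the transgene. Per the labels, each library came from frozen HSPCs of 2 age-matched mice pooled by genotype, so the 4 libraries of a genotype are separate pools of animals, and 50000 viable cells entered each reaction. The sort gate of the study was lineage-negative, Sca-1-positive and c-Kit-positive bone marrow, and the sex of each pool is not given in the labels.

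p300, encoded by Ep300, is a lysine acetyltransferase that is brought to enhancers and promoters by DNA-bound transcription factors and acetylates histone H3 at lysine 27, a mark of active regulatory DNA. It has a close paralog, CBP, encoded by Crebbp. In blood stem cells both serve factors such as Myb, Gata, Runx and Cebp proteins that choose between self-renewal and the lymphoid, myeloid and erythroid lineages.

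Each library was deposited as a list of accessible intervals with a −log10 p for each, and no read counts, so the depth of each library cannot be read from them. The lists held between 98544 and 132722 intervals in WT and between 86039 and 135726 in P300KO. To put the lists on equal terms, intervals were ranked within each list by −log10 p and the strongest 50000 were kept. Overlapping intervals of the 8 lists were merged into 76618 regions. A region's value in a library is its rank percentile, which is near 100 for the strongest interval and 0 where the library has none among its strongest 50000. A region was tested when at least 4 of the 8 libraries had it, which left 48797 regions, 29210 of them in all 8. Replicates 1 and 2 and replicates 3 and 4 form pairs: the first carry a label naming a merged file and the second do not, and nothing states what else differed. A region was said to rank higher in P300KO when both P300KO libraries lay above both WT libraries in each pair, and lower when both lay below in each pair.

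WT replicate 1 stood apart. Its strongest 50000 intervals had a median −log10 p of 7.35, against 17.5 in WT replicate 2, 30.1 and 15.7 in P300KO replicates 1 and 2, and 95.4 to 149 in replicates 3 and 4 of both genotypes. Its interval at rank 50000 had a −log10 p of 4.11, and 88.7% of its strongest intervals reached a −log10 q of 2, against 100% in the other 7 lists. It also held 836 X-linked intervals, where the other lists held 1312 to 3148. Medians and differences that change sign or move by more than 1.5 times without it are also given without it. Of the 12 HSPC markers, all 12 had tested regions, at a mean percentile of 43.1 to 51.4 in the WT libraries and 47.1 to 49.9 in the P300KO libraries. Of the 5 mature erythroid markers, Hbb-bs, Hba-a1, Epb42 and Slc4a1 had no tested region. Of the 6 B cell markers 5 did have tested regions, among them Cd79b, Ms4a1, Pax5 and Ebf1, at a mean percentile of 16.8 to 36.5 in WT and 21.1 to 26.1 in P300KO. The 5 tested of 7 T and NK cell markers lay at 48.4 to 60.7 in WT and 41.6 to 49.6 in P300KO, where Nkg7 ranked lower. The 5 macrophage and dendritic markers lay at 21.1 to 45.5 in WT and 41.9 to 49.3 in P300KO, where Adgre1 ranked higher. Means of the neutrophil, megakaryocyte, mast cell and stromal markers overlapped between the genotypes, with Pf4 of the megakaryocyte and Cxcl12 of the stromal markers ranking higher. A part of these cell types in the results was not tested. Fewer cells of a type and less accessible DNA per cell cannot be told apart in such bulk lists.

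The sequences that follow reach 100 bp to each side of the summit of regions described further on, from the plus strand of the RefSeq GRCm38.p6 genome, which has the mm10 coordinates of the files. They are shown because they are among the regions that moved most, or lie at the genes on which the results turn. Capitals mark matches, on either strand, to short consensus strings of 3 families of blood transcription factors. The Gata string GATAA is present in 19.9% of the 25589 tested regions more than 3 kb from a transcription start (distal regions) and in 11.8% of tested promoter regions. The Ets string GGAAGT is present in 33.5% of those distal regions and 26.2% of promoter regions. The Runx string TGTGGT is present in 28.8% of distal and 15.5% of promoter regions. A match is a stretch of letters and not a measured binding site. The first 5 windows ranked higher in P300KO and the last 3 lower.
Ppp1r15a promoter, chr7:45524831-45525031: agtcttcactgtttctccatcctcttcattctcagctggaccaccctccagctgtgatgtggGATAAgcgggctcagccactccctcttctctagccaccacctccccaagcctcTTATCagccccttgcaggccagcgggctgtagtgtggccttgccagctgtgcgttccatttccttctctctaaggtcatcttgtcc
Gfpt1 exon, chr6:87085198-87085398: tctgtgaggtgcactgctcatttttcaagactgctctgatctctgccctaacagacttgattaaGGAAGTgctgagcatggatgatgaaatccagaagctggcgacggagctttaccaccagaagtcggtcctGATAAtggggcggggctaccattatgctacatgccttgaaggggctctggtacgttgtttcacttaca
Ssbp2 intron, chr13:91611971-91612171: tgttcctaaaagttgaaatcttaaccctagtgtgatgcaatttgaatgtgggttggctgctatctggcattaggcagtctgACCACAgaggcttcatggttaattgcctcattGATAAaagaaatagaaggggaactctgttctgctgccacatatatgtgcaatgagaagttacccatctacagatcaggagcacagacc
Ifit1, intergenic, chr19:34656557-34656757: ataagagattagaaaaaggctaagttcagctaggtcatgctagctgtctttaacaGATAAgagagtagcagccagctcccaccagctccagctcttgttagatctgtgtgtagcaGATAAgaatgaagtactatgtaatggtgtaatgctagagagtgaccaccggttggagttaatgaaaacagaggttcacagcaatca
Mx1 promoter, chr16:97462894-97463094: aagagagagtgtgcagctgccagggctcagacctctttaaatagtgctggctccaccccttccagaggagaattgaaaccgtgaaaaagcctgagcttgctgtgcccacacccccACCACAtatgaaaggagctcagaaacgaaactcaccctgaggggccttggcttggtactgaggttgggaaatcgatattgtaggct
Chga promoter, chr12:102553983-102554183: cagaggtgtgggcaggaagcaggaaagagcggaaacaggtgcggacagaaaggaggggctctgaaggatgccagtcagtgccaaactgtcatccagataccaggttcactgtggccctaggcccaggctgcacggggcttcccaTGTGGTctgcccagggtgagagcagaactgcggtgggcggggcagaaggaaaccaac
Hes1, intergenic, chr16:30145532-30145732: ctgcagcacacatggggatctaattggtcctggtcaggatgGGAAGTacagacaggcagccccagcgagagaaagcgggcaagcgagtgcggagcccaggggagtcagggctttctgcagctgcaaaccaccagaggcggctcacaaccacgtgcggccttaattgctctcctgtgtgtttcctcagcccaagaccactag
Dntt, intergenic, chr19:41022306-41022506: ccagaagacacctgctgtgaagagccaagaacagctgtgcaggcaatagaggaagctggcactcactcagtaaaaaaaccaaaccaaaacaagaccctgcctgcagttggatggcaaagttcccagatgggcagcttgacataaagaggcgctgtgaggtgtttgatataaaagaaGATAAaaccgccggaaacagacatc

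The first question was which regions changed rank when p300 was lost. Among regions with the same direction in both pairs, the largest drop in rank was in an intron of Ebf1, the gene of a transcription factor that commits progenitors to the B lineage, and the largest gain in the promoter of Ppp1r15a, which encodes a stress-induced phosphatase subunit. In all, 3019 of the 48797 tested regions (6.19%) ranked higher in P300KO in both pairs and 2052 (4.21%) ranked lower. The median difference of the regions that ranked higher was 14.8 percentile points, and that of the regions that ranked lower was −13.7 points. On the percentile scale no single region passed the test across all regions: limma, with the pair as covariate, called 0 regions higher and 0 lower at a Benjamini-Hochberg adjusted p under 0.05 (0.0% each), with a smallest adjusted p of 0.145. With ranks turned into normal scores the same fit called 87 regions higher and 45 lower. The limma fit on percentiles gave 2898 regions higher (5.94%) and 2184 lower (4.48%) at an unadjusted p under 0.05. The regions below are therefore described by their order in the 8 libraries, not as changes established one by one.

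**Figure D1:**
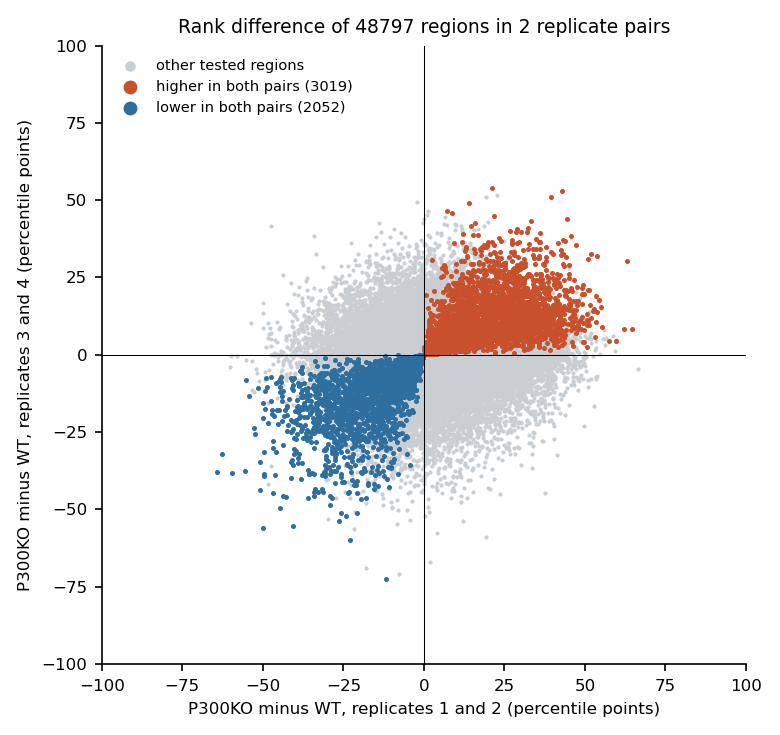
Difference in rank percentile, mean of P300KO minus mean of WT, in replicates 1 and 2 (horizontal axis) and in replicates 3 and 4 (vertical axis), for 48797 tested regions. Orange points are the 3019 regions higher and blue points the 2052 regions lower in both pairs; grey points fill all 4 quadrants, so many regions moved one way in 1 pair and the other way in the other.

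The split between the directions moved with an adjustment and with the weakest list. With percentiles adjusted in each library for GC content and promoter class together, 2553 regions ranked higher and 3130 lower, and the parts of GC content and of class were not separated. Of the 3019 regions, 2164 (71.7%) still ranked higher under that adjustment, and 1821 of the 2052 (88.7%) still ranked lower. Without WT replicate 1 the rule asks for less, and 4483 regions ranked higher and 4326 lower. Among the 29210 regions present in all 8 lists the counts were 1635 and 1516. In 119 regions all 4 WT libraries were at 0, and in 68 all 4 P300KO libraries were. These entered the test only through the genotype in which they were strong, so their difference was fixed by that entry. A region in all 4 libraries of a genotype passed the filter whatever the other genotype held. At Ppp1r15a, Tceanc2, Spink13, the Ebf1 intron and a Tet2 site below, most libraries of the other genotype were at 0. Entry through a single genotype therefore also shaped their difference.

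Of the 10 regions that gained most, those at Gfpt1, Ssbp2 and Ascc1 were at 0 in every WT library. Their values are a description with no test. The first lies inside an exon of Gfpt1 (chr6:87085007-87085726). Gfpt1 encodes the enzyme that feeds glucose carbon into hexosamine synthesis. The region had percentiles of 41.9, 36.9, 43.7 and 58.3 in P300KO replicates 1 to 4 and of 0 in every WT library. All 4 WT lists held an interval there, but below the strongest 50000. An intron of Ssbp2 (chr13:91611578-91612300), the gene of a single-stranded DNA binding protein that joins Ldb1 complexes, followed the same course. P300KO libraries placed it at 38.8, 49.8, 48.8 and 39.0 and WT libraries at 0, and 3 of the 4 full WT lists held it. Of the 10 tested regions of Ssbp2, 4 ranked higher and 0 lower, and 2 of those 4 were at 0 in every WT library.

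The Ppp1r15a region (chr7:45524782-45525270), 876 bp from a start site, lay at 66.6, 66.8, 54.3 and 51.4 in P300KO. In WT it was at 47.6 in replicate 2 and at 0 in the others, a difference of 47.9 ± 10.4 points (SE; limma adjusted p = 0.265) that was 39.3 without WT replicate 1, so the genotypes did not overlap but WT varied widely. A promoter region of C3 (chr17:57227838-57228518), which encodes the central complement protein, lay at 37.4, 55.0, 55.1 and 48.5 in P300KO and at 0, 1.28, 0 and 26.9 in WT. Other gained regions lay at Frrs1, Ascc1, Dync1h1 and Tceanc2 and on chromosome X more than 100 kb from a gene, with differences between 40.98 and 46.6 points. The Dync1h1 difference of 41.4 points was 30.8 without WT replicate 1. Of these 10 regions, the X-linked one no longer ranked higher after the GC and class adjustment.

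In the regions that fell, P300KO libraries were mostly at or near 0. The Ebf1 intron lay at 70.5, 42.8, 58.8 and 53.2 in WT and at 0, 13.5, 0 and 0 in P300KO. This difference was −52.9 ± 9.14 points (SE; limma adjusted p = 0.186), and −48.0 without WT replicate 1. The other regions of Ebf1 did not all follow: a GC-rich promoter region (chr11:44618213-44618662) ranked higher in P300KO, at 42.9, 25.5, 15.0 and 14.9 against 0, 6.77, 7.95 and 5.95 in WT. A region in the promoter of Chga, which encodes the granule protein chromogranin A, lay at 54.0, 37.6, 68.9 and 58.0 in WT and at 1.33, 9.06, 0 and 16.2 in P300KO. A region 44.1 kb from the nearest start of Irf2, a repressor of interferon-responsive genes, lay at 53.2, 58.5, 49.7 and 39.4 in WT and at 1.97, 15.98, 0 and 0 in P300KO. The Irf2 locus as a whole had no single direction, since 3 of its 21 tested regions ranked higher and 3 lower, and 1 of those higher was at 0 in every WT library. The other fallen regions lay at Spink13, Gm5148, Taok1 and Nxt1 and at 3 sites on chromosomes 7, 8 and 10 more than 100 kb from a gene, with differences between −50.9 and −44.7 points. Each of the 10 still ranked lower after the GC and class adjustment.

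**Figure D2:**
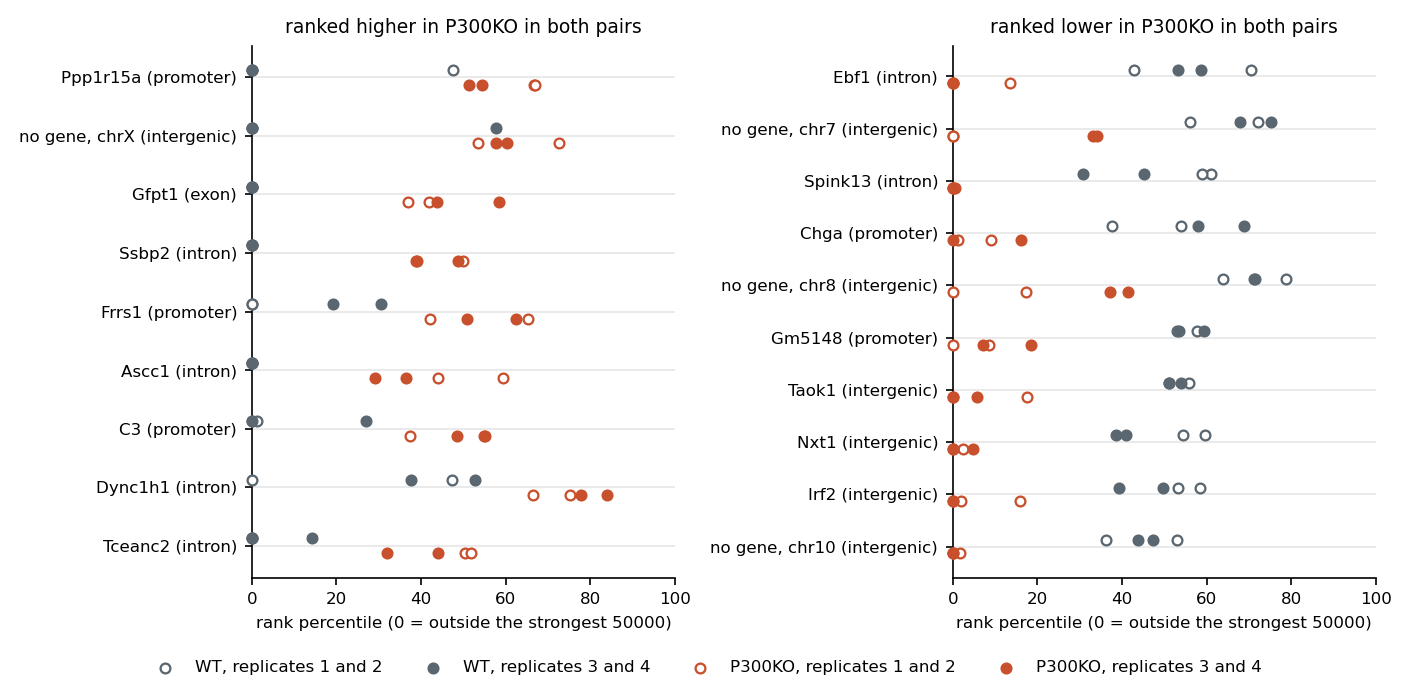
Rank percentile (0 to 100) in each library of 9 of the 10 regions with the largest gain (left) and the 10 with the largest fall (right) among those that moved the same way in both pairs. Grey marks WT and orange P300KO, with open circles for replicates 1 and 2 and filled circles for replicates 3 and 4; at Gfpt1, Ssbp2 and Ascc1 all 4 WT libraries sit at 0.

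The position of a region in the genome made a modest difference. Intronic regions ranked higher in 7.41% of 11318 cases and lower in 4.10%, with a median difference of 2.09 points. The 1033 exonic regions gave 7.45% and 4.36%, with a median of 2.29 points (1.28 without WT replicate 1). Intergenic regions ranked higher in 5.82% of 13238 cases and lower in 4.37%, and promoter regions in 5.74% and 4.15% of 23208 cases, with medians of 1.26 and 0.422 points. Without WT replicate 1 the medians of the intronic, intergenic and promoter regions were 0.956, 0.418 and 0.144 points. The share of the strongest 50000 intervals within 3 kb of a start was 47.8 ± 1.36% in WT and 47.9 ± 1.28% in P300KO (SD over 4 libraries of each genotype). P300KO minus WT was 0.104 points, with p = 0.857 in an exact permutation test of both directions, and 0.189 points without WT replicate 1. Their median GC content was 53.7% in all 4 WT libraries and 53.5 ± 0.287% in P300KO (SD over 4 libraries), lying −0.249 points apart (p = 0.429, same exact permutation test). No p under 0.0286 can come from the 70 regroupings. Within the promoter class, the median difference was 2.84 points in regions with the least GC and −0.133 points in those with the most, and 1.71 and −0.151 points without WT replicate 1.

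The distal regions that gained and those that fell differed in the consensus strings they held. GATAA, the string of Gata proteins such as Gata2 and Gata1 of stem, erythroid and megakaryocytic cells, was in 29.5% of the 1687 distal regions that ranked higher and in 13.5% of the 1088 that ranked lower, against 19.9% of all distal regions. Read the other way, 9.75% of distal regions with GATAA ranked higher and 2.88% lower, where all distal regions gave 6.59% and 4.25%. TTGCNNAA, the string of Cebp proteins of the myeloid lineage, was in 13.3% of gained, 7.54% of fallen and 10.01% of all distal regions. Runx and Ets strings went the other way. TGTGGT was in 27.7% of gained and 37.4% of fallen regions, and GGAAGT in 31.2% and 40.3%. AGGGGGC, part of the string of the insulator protein Ctcf, was in 10.2% of gained and 5.06% of fallen regions. The Gata order held in each of 5 bins of GC content, from 43.1% of gained and 26.3% of fallen regions in the bin with the least GC to 15.3% and 6.20% in the bin with the most. These are shares of regions picked by their ranks, and no test was applied to them.

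The same strings were then compared over libraries. For each library, the mean percentile of distal regions with a string was compared with that of regions without it. For GATAA this contrast was −0.818, 0.865, −3.43 and −4.45 points in WT replicates 1 to 4 and 1.82, 2.76, −1.67 and −1.52 points in P300KO replicates 1 to 4. P300KO libraries were above WT libraries within each pair, by 2.27 points in replicates 1 and 2 and 2.34 points in replicates 3 and 4, but the pairs differed more than the genotypes and the pooled ranges overlapped. The difference was 2.30 points (two-sided exact permutation p = 0.2, adjusted p = 0.6 over 10 strings). With labels permuted only within pairs the exact permutation p was 0.0556 for GATAA and for the Irf string, the smallest that 36 arrangements allow, and 0.278 adjusted. Both P300KO libraries lay above both WT libraries in each pair for GATAA and below them for the Irf string. Permutation within pairs could therefore not pass 0.05, and over all 70 regroupings a single string could not pass it once adjusted over 10 strings. The Cebp contrast differed by 1.88 points, the Ctcf contrast by 1.42 points and the Runx contrast by −1.22 points, with exact permutation p-values of 0.143, 0.286 and 0.371 and an adjusted p of 0.6 for each. The strings of Irf (a pair of GAAA blocks spaced by 2 bases of any kind), NFkB, Myb, Ap1, Ets and the Tal1 E-box gave differences between −0.835 and 1.79 points, also with an adjusted p of 0.6. Without WT replicate 1 the difference was 2.16 points for Ctcf, −1.98 for Runx, 0.665 for NFkB, −1.47 for Ets and −0.779 for the Tal1 E-box.

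**Figure D3:**
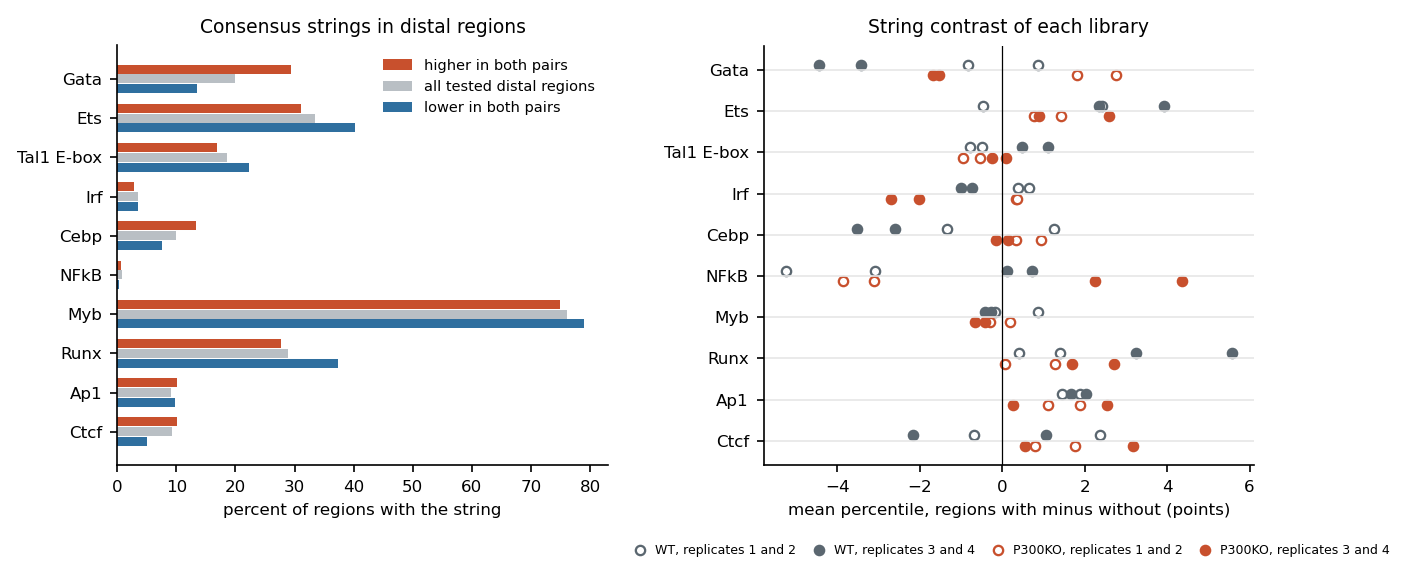
Left, percent of distal regions that hold each consensus string within 100 bp of the summit, for regions higher in both pairs (orange), all 25589 tested (grey) and lower in both pairs (blue). Right, mean percentile of distal regions with the string minus those without, in points, 1 circle per library (open, replicates 1 and 2; filled, replicates 3 and 4); the Gata share is 29.5% in gained and 13.5% in fallen regions, while the library contrasts overlap between genotypes across pairs.

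The next question was which genes and pathways moved. Regions were given to the gene with the nearest start within 3 kb, else to the gene body holding them, else to the nearest start within 100 kb, and a gene's value is the mean percentile of its regions. Of 15643 genes, 1224 (7.82%) ranked higher in both pairs and 522 (3.34%) lower, and these shares are the background for every list below. limma called 0 genes higher and 0 lower at an adjusted p under 0.05 (0.0% each), and 1113 higher (7.12%) and 500 lower (3.2%) at an unadjusted p under 0.05. The excess of higher genes shrank with the GC and class adjustment, to 942 higher and 880 lower, and without WT replicate 1, to 1750 higher and 1239 lower. It grew with lists of the strongest 80000 intervals, to 1537 and 375. By the moderated statistic of limma and not by the size of the difference, in genes with at least 3 tested regions, Gfpt1 and Hectd4, which encodes a ubiquitin ligase, led the gains, and Pabpc2, Ing1, a reader of methylated histone H3 in deacetylase complexes, and Cdh17, a cadherin, led the falls. The place of Gfpt1 is no result, since 1 of its 3 regions is the exon region at 0 in every WT library. Without regions at 0 throughout 1 genotype, an alternative chosen after seeing the data, 1190 genes ranked higher and 509 lower, and Gfpt1 differed by 4.45 points and ranked neither way.

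Hectd4, with 6 regions, had a mean percentile of 25.6, 23.3, 36.2 and 30.4 in WT and 47.8, 52.0, 46.8 and 47.4 in P300KO. Its lowest P300KO value lay above its highest WT value, and 3 of the 6 regions ranked higher (difference 19.6 ± 3.59 points, SE; limma adjusted p = 0.243). Mcu, the pore of the mitochondrial calcium uniporter, had values of 37.6 to 44.2 in WT and 51.8 to 55.3 in P300KO. Slc30a1, a zinc exporter, had values of 31.1 to 37.1 in WT and 43.7 to 50.7 in P300KO. Uhrf1bp1l, Ttc39a, Col4a3bp, Cog3, Plekhm2 and Tbc1d19 completed the gains, with differences between 12.9 and 19.8 points. Col4a3bp and Cog3 turned direction in regions of all 8 lists, Cog3 ranked neither way without its region at 0 in every WT library (10.9 points), and Mcu no longer ranked higher after the GC and class adjustment.

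Ing1, with 3 regions, had 85.7, 87.3, 87.1 and 80.7 in WT and 75.9, 77.9, 67.3 and 69.3 in P300KO, a difference of −12.6 ± 2.12 points (SE; limma adjusted p = 0.239). Its groups did not overlap. Pabpc2, a testis-expressed poly(A)-binding protein gene, had 66.7, 54.0, 55.0 and 49.1 in WT and 33.1, 36.03, 26.8 and 22.3 in P300KO (difference −26.6 ± 3.67 points, SE; limma adjusted p = 0.121). Arpp21, which hosts a microRNA of the lymphoid and neural lineages in an intron, had a promoter region (chr9:112186209-112187013) at 61.0, 53.2, 41.6 and 30.9 in WT and 12.4, 0, 0 and 3.43 in P300KO. Itga3, Dhrs2, Prss2, Sgsm1, Chga and Zfp683, a transcriptional repressor expressed in tissue-resident lymphocytes, completed the falls, with differences between −20.4 and −14.3 points. Of the 4 regions of Dhrs2, 1 was at 0 throughout 1 genotype. Without that region Dhrs2 differed by −16.1 points and still ranked lower.

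Interferon-stimulated genes had the largest share of higher members among the 31 lists examined. Of 27 tested members, 7 ranked higher (25.9%, against 7.82% of all genes) and 1 lower. The median difference of the list was 1.80 points, against 1.06 over all genes, and without WT replicate 1 these were 1.26 and 0.47 points. The 7 covered sensing, signalling and effector steps: Ddx58, the RIG-I sensor of viral RNA, Stat2, a transcription factor of the response, the effectors Mx1, Ifit1, Ifi27 and Ifi35, and Usp18, which damps the receptor. Each of the 8 called members, Oasl1 included, kept its direction under the 16 alternatives for single genes. Leaving out a library, taking either pair alone or fitting the replicate number could not turn a called gene, so these are no support. After the GC and class adjustment only Ifit1 still ranked higher and Oasl1 lower. The Mx1 promoter region on its own still ranked higher, while the mean of its 2 regions did not. Not all of the pathway moved: Irf9 and Irf7, which are also transcription factors of the response, differed by 0.94 and 0.78 points, the latter by 2.42 without WT replicate 1, where it ranked higher.

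Among the regions of this list that ranked higher was the promoter of Mx1, an interferon-induced antiviral GTPase. The region (chr16:97462611-97464459) lay at 69.996, 57.3, 48.3 and 51.9 in WT and at 83.0, 75.2, 83.4 and 85.2 in P300KO. Every P300KO library was above every WT library, and the difference was 24.8 ± 4.53 points (SE; limma adjusted p = 0.186). Without WT replicate 1 it was 29.2 points with a limma adjusted p of 0.0396, the only adjusted call among all regions in that fit. The Mx1-Cre transgene was present in the P300KO mice alone and is driven by Mx1 promoter sequence, so accessibility of the native promoter and of the transgene cannot be told apart here. A site 15.5 kb from the nearest Ifit1 start (chr19:34656346-34657064), which holds a pair of GATAA matches in its printed window, lay at 3.65, 24.0, 5.38 and 16.4 in WT and at 64.2, 48.8, 45.3 and 41.1 in P300KO (difference 37.5 ± 9.06 points, SE; limma adjusted p = 0.300). By contrast a site near Oasl1 (chr5:114916548-114917095) lay at 25.5, 19.4, 31.996 and 26.8 in WT and at 0, 4.37, 0 and 4.71 in P300KO. At Stat2, Ifi35 and Usp18 the regions that ranked higher differed by 1.16, 3.73 and 3.31 points only.

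In the Notch pathway more members ranked lower than higher, and most of those were target genes. Of 30 tested members, 4 ranked lower (13.3%, against 3.34% of all genes) and 1 higher, although the median of the list was 0.82 points, or −0.11 without WT replicate 1. The 4 were the ligand Dll1, of whose 5 tested regions 0 ranked lower on their own, and the target genes Hes1, Hes5 and Heyl, which encode repressors of the Hairy and Enhancer of split family that hold progenitors undifferentiated. Maml1, the coactivator through which p300 joins the Notch complex, ranked higher. All 5 kept their direction under the alternatives, many of which could not turn a called gene. The 4 that ranked lower also did so after the GC and class adjustment, while Maml1 no longer ranked higher. Notch2, Rbpj and Jag1 differed by 3.14, 1.54 and 1.47 points and ranked neither way, and neither did Notch1, at 0.32 points. Without WT replicate 1 these 4 differed by 1.45, −0.19, −3.54 and −0.84 points. Hes1 had 12 tested regions, of which 5 ranked lower and 0 higher. Its mean percentile was 49.8, 45.5, 54.6 and 50.5 in WT and 38.6, 40.5, 38.3 and 42.9 in P300KO, a difference of −9.99 ± 3.03 points with no overlap between the genotypes. At the Hes1 promoter (chr16:30063457-30064489) the values were 71.8, 74.6, 73.2 and 65.95 in WT and 59.4, 63.3, 56.5 and 44.0 in P300KO. The site 78.9 kb away that is printed above lay at 62.2, 16.5, 45.8 and 46.3 in WT and at 2.83, 0, 6.07 and 15.8 in P300KO. The Hes5 promoter region (chr4:154961274-154962260) lay at 71.4, 69.7, 73.2 and 73.5 in WT and at 61.4, 67.6, 63.3 and 56.5 in P300KO. Within Notch1, 1 of 10 regions ranked lower, a promoter region at 92.8, 86.9, 94.6 and 93.4 in WT and 84.1, 81.9, 87.4 and 90.1 in P300KO, and 1 ranked higher.

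Among genes of B cells and of lymphoid priming a few ranked lower and most ranked neither way. Of the 11 tested B cell genes, Blk, a Src-family kinase, and Cd22, an inhibitory receptor, ranked lower (18.2%, against 3.34% of all genes). Fcrla ranked higher (9.09%, against 7.82%), and the list median was −2.75 points, or −4.84 without WT replicate 1. After the GC and class adjustment 4 of the list ranked lower and 0 higher. The Blk promoter region (chr14:63377173-63377912) lay at 50.3, 42.2, 71.0 and 71.3 in WT and at 30.1, 0, 29.5 and 24.3 in P300KO, without overlap (difference −37.7 ± 9.04 points, SE; limma adjusted p = 0.300). Of the 28 tested lymphoid priming genes, Dntt ranked lower and Ikzf2 higher (3.57% each, against 3.34% and 7.82% of all genes), at a median of −0.16 points, or −0.52 without WT replicate 1. After the GC and class adjustment 1 of these ranked higher and 4 lower. Dntt encodes the terminal transferase that marks early lymphoid progenitors. Its site 6.13 kb from the nearest start (chr19:41021953-41023144) lay at 71.1, 72.1, 79.3 and 73.7 in WT and at 49.1, 67.9, 65.9 and 57.2 in P300KO, and an intronic site (chr19:41039060-41039596) also ranked lower. The Dntt promoter region did not, and the gene as a whole differed by −5.77 ± 2.73 points. Ikzf2, which encodes the zinc finger protein Helios, had an intronic region at 0, 18.1, 50.7 and 47.5 in WT and at 66.6, 54.5, 64.5 and 65.7 in P300KO. Among T and NK cell genes, the promoter of Nkg7, a cytotoxic granule protein, lay at 41.8, 31.7, 25.1 and 24.4 in WT and at 0, 8.51, 0 and 0 in P300KO. A promoter region of Thy1, a surface protein of T cells and of some progenitors, was at 0 in every WT library and at 32.8, 28.4, 30.7 and 37.0 in P300KO. It entered the test only through P300KO, so its separation is no result. Thy1 as a whole gene, with 5 regions, ranked higher by 17.3 points, and by 13.6 points without that region. B cell markers did not move as a group: 0 of the 5 tested ranked higher and 0 lower, with a median of −3.77 points (−6.60 without WT replicate 1). The ranges of the T and NK cell markers given above overlapped between the genotypes. Their median difference was −0.77 points, or −7.25 without WT replicate 1. A part of changed cell proportions in these lymphoid values was not tested.

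**Figure D4:**
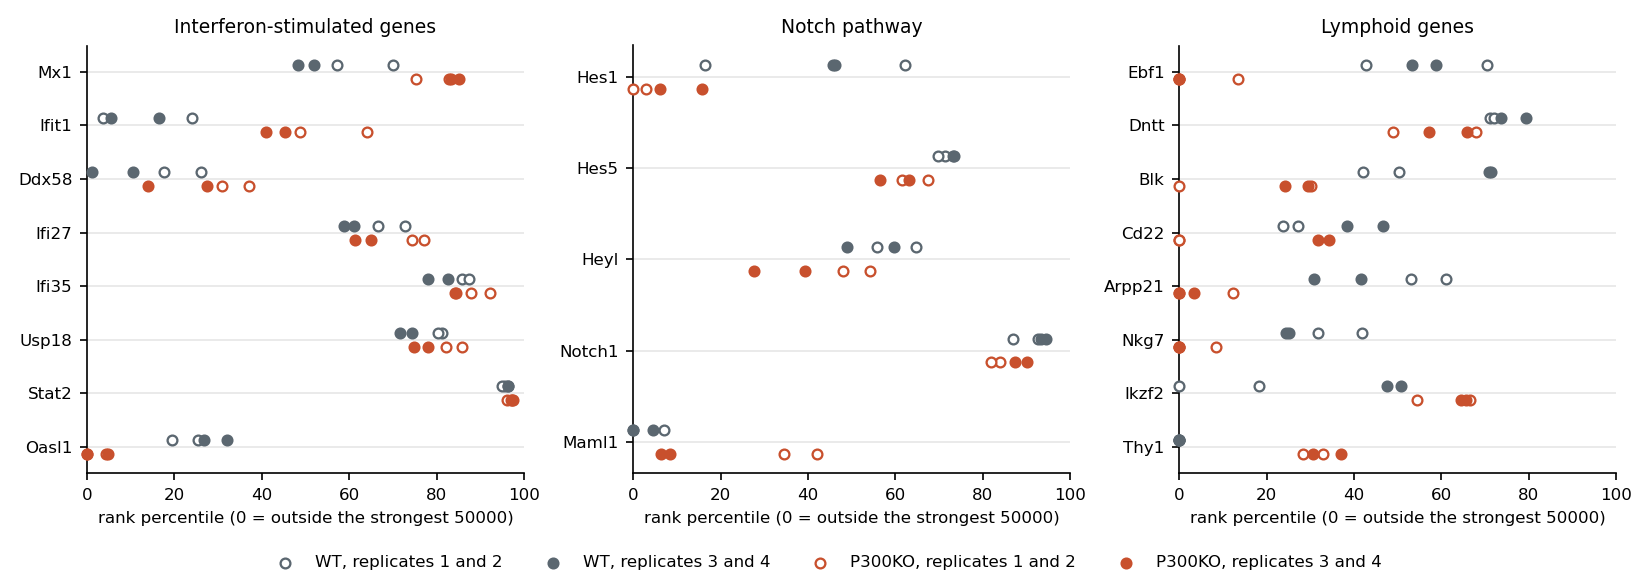
Rank percentile (0 to 100) in each library of 1 region per gene, the one with the largest difference among the gene's regions that moved the same way in both pairs, for interferon-stimulated (left), Notch (middle) and lymphoid (right) genes. Grey marks WT and orange P300KO, with open circles for replicates 1 and 2 and filled circles for replicates 3 and 4; the Mx1 promoter lies at 75.2 to 85.2 in P300KO and 48.3 to 69.996 in WT, and the Ebf1 intron at 0 to 13.5 against 42.8 to 70.5.

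The signalling lists did not all lean one way. In the NF-kB, Jak-Stat, TGF-beta and Ras-MAPK lists 13.3% to 13.8% ranked higher, against 7.82% of all genes, each share resting on 4 genes. Between 0% and 6.67% of these lists ranked lower, against 3.34% of all genes. Early response genes gave 3.33% higher and 10% lower. Of 30 NF-kB and TNF response genes, 4 ranked higher and 0 lower, and 3 and 1 after the GC and class adjustment. They were Icam1, an adhesion receptor, Il1b, a cytokine, Traf3, an adaptor that restrains the pathway, and Ptgs2, a prostaglandin synthase. Il1b, with 5 regions, lay at 19.4, 33.4, 31.9 and 30.2 in WT and at 46.3, 46.6, 39.2 and 37.3 in P300KO, without overlap. Of 29 Jak-Stat genes, Stat5a, Stat6, Stat2 and Socs7 ranked higher and Pias2 lower, and Pias2 turned with the strongest 80000 intervals (8.17 points). Stat5a, a transcription factor downstream of cytokine receptors, lay between 47.6 and 49.3 in WT and between 60.1 and 63.0 in P300KO, but 1 of its 2 regions was at 0 throughout 1 genotype, and its direction turned when only regions in all 8 lists were used (−0.63 points) and with the strongest 30000 intervals (−1.05 points). Of 30 TGF-beta and BMP genes, Smad1, Smad3, Smad4 and Acvr1b ranked higher and Tgfbr3 lower, with Smad3 and Acvr1b turning direction in regions of all 8 lists, and after the GC and class adjustment 1 of the list ranked higher and 2 lower. Of 30 Ras-MAPK genes, Rasgrp4, Sos2, Nf1 and Hras ranked higher, and Braf and Dusp6, a phosphatase of Erk kinases, lower. Rasgrp4, a Ras activator of myeloid and mast cells, had the largest difference of these, at 16.3 points. Of 30 early response genes, Dusp2, Dusp6 and Ier5 ranked lower and Btg1 higher, with a list median of −0.77 points (−1.70 without WT replicate 1), of which Ier5 and Btg1 turned direction under an alternative. Of 29 cytokine receptor genes none ranked higher or lower.

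Genes of stem cells and of the lineages changed little as groups. Of 29 stem cell factors, Pbx3, Hlf and Gata2 ranked higher (10.3%, against 7.82% of all genes) and none lower. The counts were 3 and 2 after the GC and class adjustment, and the list median of 2.00 points became −0.53 without WT replicate 1. A promoter region of Gata2, a factor needed for stem cell survival, lay at 44.5, 51.9, 28.5 and 47.4 in WT and at 60.7, 61.2, 47.8 and 57.1 in P300KO, which does not overlap within pairs but does across them. As a whole gene Gata2 turned to −2.09 points when ranked by fold enrichment. Klf1, the erythroid master factor, had 1 region near the top of every list, at 93.3, 91.8, 95.1 and 96.9 in WT and 93.6, 95.4, 98.1 and 98.2 in P300KO. Pf4, a platelet chemokine, lay at 69.7, 73.3, 61.8 and 56.4 in WT and at 76.7, 78.2, 69.6 and 72.0 in P300KO. Among 28 granulocyte and monocyte genes, Spi1 and Prtn3 ranked higher and Cebpb and Ly86 lower, and each of these 4 turned direction under at least 1 alternative, with 0 of the list higher and 4 lower after the GC and class adjustment. Of the 16 tested Hoxa and Hoxb genes, 2 ranked higher (12.5%, against 7.82% of all genes), Hoxa13 among them, and 0 lower. Of the 8 tested Hoxb genes 0 ranked higher or lower (differences from −3.54 to 21.5 points). The highest was at Hoxb5, with a single region, and fell to 10.9 points without WT replicate 1, where the 8 ranged from −7.45 to 11.3 and Hoxb1 ranked higher. Kit, Cd34, Flt3, Ly6a, Runx1, Cebpa and Notch1 as whole genes ranked neither way, with differences between −5.07 and 0.57 points, or −6.78 and 0.63 without WT replicate 1. In that setting Runx1 and Ly6a ranked lower, and Cebpa ranked lower after the GC and class adjustment.

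The targeted gene itself could not be checked by these lists, since a floxed exon need not change the accessibility of the rest of the gene. Ep300 had 4 tested regions, of which 0 ranked higher or lower, and as a whole gene it ranked neither way (5.56 points) but higher without WT replicate 1 (8.18 points). Its promoter region (chr15:81584854-81586752) lay at 91.1, 84.3, 86.4 and 85.6 in WT and at 89.3, 91.9, 87.9 and 87.2 in P300KO, so the genotypes overlapped. Crebbp, the paralog, differed by 0.61 ± 3.06 points, or 0.94 without WT replicate 1. Among 29 lysine acetyltransferase and deacetylase genes, Hdac4, Hdac5 and Hdac10, class II deacetylases, and the coactivator Ncoa2 ranked higher (13.8%, against 7.82% of all genes). Kat8 and Hdac7 ranked lower (6.90%, against 3.34%), and the list median was 3.93 points against 1.06 over all genes (1.81 against 0.47 without WT replicate 1). Kat8, Hdac7 and Ncoa2 turned direction under at least 1 alternative. Among 30 epigenetic regulators mutated in myeloid leukemia, Tet2, Dnmt1, Setd2 and Kmt2c ranked higher (13.3%, against 7.82% of all genes) and 0 lower. Dnmt1 turned to −0.37 points with regions in all 8 lists. Tet2, a DNA demethylase gene, had a site 8.21 kb from a start (chr3:133463081-133463603) at 0, 10.5, 0 and 0 in WT and at 47.7, 53.0, 28.6 and 21.2 in P300KO. The genotypes did not overlap, but the site passed the filter through P300KO alone. The gene's mean was 53.7, 60.1, 51.2 and 50.2 in WT and 67.3, 68.7, 58.6 and 60.4 in P300KO (difference 9.93 ± 2.84 points, SE).

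Growth and survival genes ranked higher at about the share of all genes. Of 29 Myc and growth genes, Myc and Eif4ebp1 ranked higher (6.90%, against 7.82% of all genes) and Mycn lower, the latter not without its region at 0 throughout 1 genotype, and after the GC and class adjustment 1 of the list ranked higher and 4 lower. A region at a Myc start (chr15:61986931-61987321) lay at 0, 18.3, 0 and 0 in WT and at 59.4, 50.1, 30.0 and 13.3 in P300KO, so the genotypes overlapped across pairs. The gene's difference of 9.71 points turned to −7.85 when lists were ranked by fold enrichment and to −0.36 with regions in all 8 lists. Trp53, the p53 gene, and Bbc3, its proapoptotic target, ranked higher among 28 apoptosis genes (7.14%) and Bok, a Bcl2-family effector, lower. Bbc3 turned direction when ranked by fold enrichment (−6.21 points). Both tested regions of Bok ranked lower, and the gene lay at 53.3, 53.7, 60.6 and 61.0 in WT and at 30.5, 30.5, 41.9 and 37.1 in P300KO. Myb, the partner of p300 in stem cells, had 10 tested regions, of which 1 ranked higher, and differed by 4.61 ± 3.38 points with overlap between the genotypes.

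**Figure D5:**
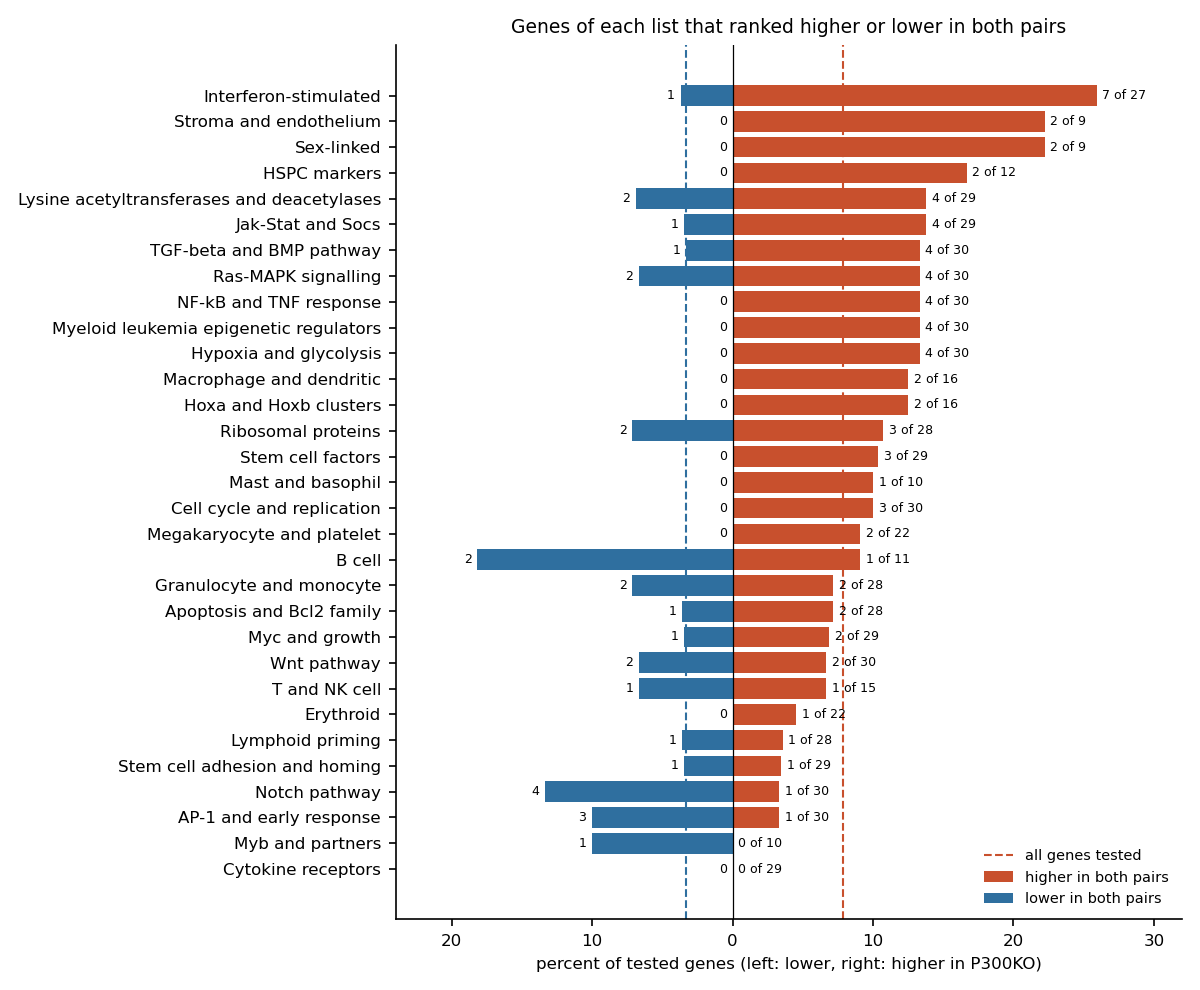
Percent of the tested genes of each of 31 lists that ranked higher (right, orange) or lower (left, blue) in P300KO in both pairs, with the number of genes beside each bar. Dashed lines mark the share over all 15643 genes, 7.82% higher and 3.34% lower; interferon-stimulated genes reach 25.9% on the right, and B cell and Notch genes 18.2% and 13.3% on the left.

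Sex-linked regions varied widely among libraries of 1 genotype. The 928 tested X-linked regions had a mean percentile of 37.8, 46.2, 48.2 and 49.9 in WT and of 48.9, 46.6, 50.04 and 50.3 in P300KO, so that WT replicate 1 was the low library. Of these regions 55 ranked higher (5.93%, against 6.19% of all regions) and 20 lower (2.16%, against 4.21%). The 9 tested Y-linked regions had means of 77.9, 55.7, 41.3 and 38.1 in WT and of 45.2, 62.3, 11.7 and 1.01 in P300KO, and 0 ranked higher or lower. Xist, the X-inactivation RNA made in female cells, had a mean of 7.07, 45.3, 30.5 and 56.05 in WT and of 63.7, 55.5, 58.4 and 58.1 in P300KO. Its difference of 24.2 points was 14.7 without WT replicate 1. The makeup of the pools by sex and the genotype cannot be told apart at these loci.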

How the data were processed

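ATAC-seq interval lists of 8 libraries were used. Per the labels, the authors' tools were cutadapt 1.9.1, Bowtie2 2.2.6 and MACS2 2.1.0, with mm10. The deposited columns used were −log10 p and fold enrichment, a ratio, both set within 1 library by the authors, so only ranks were compared. The members and gene lists were chosen with earlier results of these data known.

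Promoters lay within 3 kb of any GENCODE M21 transcript start. Protein-coding genes, with Xist and Tsix, took regions. limma 3.58.1 (R 4.3.3) was fitted to percentiles over all tested regions or genes, with a mean-variance trend and the pair as covariate, two-sided, with Benjamini-Hochberg adjustment and a threshold of 0.05. Library measures and strings were compared by exact permutation in Python 3.11.15. All 10 strings were searched on both strands, and matches of different strings may overlap. The NFkB string was GGGANTTTC. The string searched for Myb was AACNG. The one for Ap1 proteins was TGANTCA. The E-box used for Tal1 was CAGATG. The fit was tested on simulated data. p-values measure the spread between pools of mice.

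Named regions were the 10 with the largest difference in each direction among those that moved the same way in both pairs, 1 per gene. Named genes were, among those with at least 3 regions, the 10 with the largest moderated statistic in each direction, plus up to 6 members per list and direction and a fixed set of blood genes. Other regions at these genes, and list members named for not moving, were chosen after their values were seen. Some of the genes this rule selects are not reported here.

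Genotypes share replicate numbers in the labels. Deviations of same-numbered libraries from their genotype means correlated at 0.171 to 0.363 over regions, but 0 of 4 WT libraries correlated best with their own number. Alternatives changed list size, ranking column, filter, scale, base composition, covariates and libraries. Leaving out chromosomes X and Y, and regions at 0 throughout 1 genotype, was added after seeing the data.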

Additional observations from a re-analysis of the deposited data

Results flagged for a closer look

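Of 144 groups of 4 libraries checked at the named regions and genes, the 12 given here had 1 library far from the other 3, judged by its gap to the nearest other library divided by the range of the group. Chance gives about 1 in 20 such groups, and many of these regions were at 0 in the other libraries.

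In WT the ratio was 1 at Ppp1r15a, where replicate 2 was at 47.6, at the X-linked region without a gene, where replicate 4 was at 57.6, and at Tceanc2, where replicate 4 was at 14.2. It was 0.952 at C3, where replicate 4 was at 26.9, and 0.837 for the gene mean of Chga, where replicate 3 was at 49.1.

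In P300KO the ratio was 1 at the Ebf1 intron, where replicate 2 was at 13.5, at Spink13, where replicate 2 was at 0.424, and at the chromosome 10 region without a gene, where replicate 2 was at 1.63. It was 0.877 at Irf2, where replicate 2 was at 15.98, and 0.830 for Uhrf1bp1l, where replicate 2 was highest at 64.4. For the surface proteins Ly6a and Cd34 of HSPCs it was 0.844, with replicate 2 lowest at 13.4, and 0.868, with replicate 1 lowest at 52.2.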

How the results depend on the processing

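The 20 named regions kept their direction under all 11 alternatives run for regions, and 88 of 115 genes named for a direction kept it under all 16 run for genes. These regions and genes were picked for the same order in both pairs. Leaving out a library, taking either pair alone or fitting the replicate number could therefore not turn them, and such alternatives are no support. The counts of regions higher and lower were 1720 and 1345 with the strongest 30000 intervals, 4557 and 2592 with the strongest 80000, 1635 and 1516 in all 8 lists, 1968 and 1203 with distal intervals ranked alone, and 2553 and 3130 adjusted for GC content and class. Each pair alone asks for less and gave 10010 and 6367 in replicates 1 and 2, and 11442 and 10238 in replicates 3 and 4. The counts of genes were 3775 and 1791 and 3957 and 3058 in the pairs alone, 839 and 302 with distal intervals alone, and 942 and 880 with the GC and class adjustment. Leaving out 1 library also asks for less and gave 4330 to 5643 regions higher, 2773 to 4326 lower, 1686 to 2286 genes higher and 703 to 1239 lower. limma called 87 regions higher and 45 lower and 2 genes higher on normal scores, 2 genes higher and 3 lower with distal intervals alone, and 0 to 1 region higher on leaving out a library. The promoter share turned to −0.105 points with the strongest 30000 intervals, −0.159 by fold enrichment and −0.261 within 1 kb, and ranged from −0.409 to 0.706 on leaving out a library. The Ap1 contrast ranged from −0.673 to 0.0849, turning without P300KO replicate 3. With the strongest 30000 intervals, the difference in points turned for Col4a3bp (−1.31), Spi1 (−0.544), Cebpb (4.39), Prtn3 (−1.44), Ly86 (0.208), Cx3cr1 (−1.95), Btg1 (−1.09), Stat5a (−1.05), Mki67 (−1.2), Bbc3 (−1.25), Hdac7 (0.639) and Itga4 (−3.35). With the strongest 80000, the difference in points turned for Ly86 (1.03), Nkd1 (0.249), Ier5 (0.825), Pias2 (8.17), Rpl37 (14.6), Kat8 (3.15) and Hdac7 (0.289). With regions in all 8 lists, the difference in points turned for Col4a3bp (−0.786), Cog3 (−0.974), Spi1 (−0.428), Cebpb (6.69), Prtn3 (−0.413), Ly86 (0.211), Cx3cr1 (−1.75), Acvr1b (−1.24), Smad3 (−0.356), Btg1 (−0.651), Stat5a (−0.63), Mki67 (−6.14), Myc (−0.36), Rpl3 (−1.07), Bbc3 (−0.752), Ncoa2 (−0.224), Hdac7 (0.548), Dnmt1 (−0.369) and Itga4 (−1.83). Ranked by fold enrichment, the difference in points turned for Gata2 (−2.09), Spi1 (−1.74), Cebpb (5.18), Prtn3 (−4.34), Ier5 (0.708), Ddit4 (−2.33), Myc (−7.85), Rpl37 (7.44), Bbc3 (−6.21), Hdac7 (0.79) and Itga4 (−5.11). Without distant regions, the difference in points turned for Ctnnb1 (−2.71), Ier5 (1.97), Ddit4 (−0.137) and Rpl3 (−1.07). The cause of these changes was not tested.

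With the replicate number as a replicate block, limma called 0 regions and 0 genes, gave 2609 regions higher and 1997 lower at an unadjusted limma p under 0.05, left the promoter share difference at 0.104 points and changed no other call. Leaving out chromosomes X and Y, chosen after seeing the data, gave 2964 regions higher and 2032 lower. The lists hold no read counts, so no interval for counting error can be given, and an interval weak in a shallow library cannot be told from a closed site.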

Other observations

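Metabolic and cell cycle genes had members that ranked higher and 0 that ranked lower, a split that did not hold after the GC and class adjustment, with 2 higher and 2 lower in the first list and 4 and 2 in the second. Of 30 hypoxia and glycolysis genes, 4 ranked higher, against 7.82% of all genes: the glycolytic enzyme Eno1, Mxi1, a repressor of Myc targets, and Ndrg1 and Ddit4, which respond to stress, of which Ddit4 turned to −2.33 points when ranked by fold enrichment and to −0.137 without distant regions. Eno1, with 6 regions, lay at 38.0, 41.7, 50.9 and 50.3 in WT and at 52.0, 53.2, 58.0 and 53.0 in P300KO, without overlap. Of 30 cell cycle and replication genes, Mcm5, a subunit of the replicative helicase, Ccnb2, a mitotic cyclin, and Mki67 ranked higher (10%, against 7.82% of all genes), but Mki67 turned to −6.14 points in regions of all 8 lists and to −1.20 with the strongest 30000 intervals. Mcm5 lay at 44.1, 59.3, 63.9 and 66.7 in WT and at 68.6, 67.6, 68.9 and 69.2 in P300KO, with WT replicate 1 far below the rest.

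Ribosomal protein genes had no single direction, with 3 higher and 2 lower among 28, and Rps24, Rpl3, Rpl7 and Rpl37 were among these, of which Rpl3 and Rpl37 turned direction under an alternative. Of 30 Wnt pathway genes, Ctnnb1 and the receptor Fzd7 ranked higher, and the receptor Fzd3 and Nkd1 lower, with Ctnnb1 turning to −2.71 points without distant regions and Nkd1 to 0.249 with the strongest 80000 intervals. Of 29 adhesion and homing genes, Itga4 ranked higher and Epha2 lower, with Itga4 turning under 3 alternatives, to between −5.11 and −1.83 points. Of 10 genes of Myb and its partners, 1 ranked lower, the Myb paralog Mybl2, at 77.6 to 78.0 in WT and 64.6 to 75.6 in P300KO.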
